A study of Mus musculus with 9 samples.

Results

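The genes described here encode the subunits of the mitochondrial oxidative phosphorylation system, taken complex by complex. They were chosen by symbol among genes measured by a probe set with exactly 1 gene symbol: symbols starting Nduf, Sdha to Sdhd, symbols starting Uqcr, Cox4 to Cox8, and symbols starting Atp5, without pseudogenes marked "-ps". The rule gave 87 genes of the 22180 measured. Of these, 32 encode complex I subunits, 8 the Ndufaf assembly factors of complex I, 4 complex II, 7 complex III and 17 complex V. The remaining 19 are the Cox4 to Cox8 genes together with Ndufa4 and Ndufa4l2, which carry complex I symbols but are counted here with complex IV, and Cox7a2l, a factor of the respiratory supercomplexes.

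Oxidative phosphorylation passes electrons from NADH (complex I) and succinate (complex II) through ubiquinone to complex III, cytochrome c and complex IV, which reduces oxygen. Complexes I, III and IV pump protons across the inner mitochondrial membrane, and complex V, the ATP synthase, uses the gradient to make ATP. Every complex but complex II also contains subunits encoded by mitochondrial DNA, so that nuclear and mitochondrial products have to be joined by assembly factors. Several complex IV subunits exist as isoforms that are widespread, or typical of muscle, lung or testis.

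RNA came from cultured mouse podocytes, the epithelial cells that wrap the capillaries of the kidney glomerulus, after differentiation for 11 days at 37 °C. One group of 3 samples received 2.5 µM thapsigargin together with 10 µM forskolin for 16 h, a second group of 3 received 2.5 µM thapsigargin without forskolin for 16 h, and the third group of 3 received the vehicle DMSO. Thapsigargin inhibits SERCA, the pump that loads calcium into the endoplasmic reticulum, and forskolin raises cAMP by activating adenylyl cyclase. The labels call the 3 samples of a group biological replicates but not whether cultures or days differed, and the p-values rest on the spread between these 9 arrays alone. No group received forskolin without thapsigargin. The labels do not name the podocyte source.

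Values are log2 expression values as the authors deposited them, and a log2 change is a difference of group means given with its standard error (SE) from limma. A gene was called where its p, adjusted by Benjamini-Hochberg over all 22180 genes, was below 0.05. Arrays of 1 group correlated at r between 0.989 and 0.993 over all 41345 probe sets. All 6 podocyte markers measured lay above the array median in DMSO cells, and their mean log2 value was 7.48 to 7.52 in thapsigargin + forskolin samples, 7.76 to 7.78 in thapsigargin samples and 8.89 to 8.96 in DMSO samples. The mean of 6 tubular markers, 4 of them above the median in DMSO cells, was 6.89 to 6.95 in thapsigargin + forskolin samples, 6.74 to 6.88 in thapsigargin samples and 8.09 to 8.16 in DMSO samples. That of 4 mesangial or pericyte markers, 2 of them above the median, was 6.60 to 6.73 in thapsigargin + forskolin samples, 6.48 to 6.60 in thapsigargin samples and 6.83 to 6.97 in DMSO samples. The mean of 5 leukocyte markers, 2 of them above the median and Ptprc below the lower quartile, was 5.74 to 5.85 in thapsigargin + forskolin samples, 5.61 to 5.65 in thapsigargin samples and 5.91 to 6.03 in DMSO samples. Of 5 endothelial markers 1 lay above the median and Emcn below the lower quartile, and their mean was between 5.30 and 5.46 in all samples. The podocyte and tubular means moved between the same groups as the genes below, and their part in those results was not tested. After thapsigargin 4 of the 6 podocyte markers fell, among them Plce1 (log2 change -3.45) and Synpo (-2.52), while Cd2ap rose (0.23) and Nphs1 was not called (-0.16). Of the 6 tubular markers 3 fell and 3 were not called. In such bulk samples fewer cells of a type and less RNA per cell cannot be told apart.

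Thapsigargin-treated podocytes had lower RNA levels of many structural subunits of complexes I, II, IV and V than DMSO-treated podocytes, while single genes rose. Of the 87 genes, 36 fell and 7 rose. The falls were 41.4% of these genes and the rises 8.05%, where 16.9% of all genes measured were called lower and 18.2% higher. Most of the 87 genes were bright. Among the 13530 genes with a group mean above the overall median, 25.4% were called lower and 28.9% higher. Of the 80 oxidative phosphorylation genes at that level, 35 fell and 7 rose. Their median change was -0.12, against -0.02 for all genes at that level. The median change of all 87 genes, called or not, was -0.11 on the log2 scale, against -0.04 over all genes measured, and the standard errors had a median of 0.07. The largest fall was 1.96-fold (Ndufb3). By complex the median was -0.10 in complexes I and III, -0.28 in complex II, and -0.19 in complexes IV and V. Only 2 called genes of the 87 changed at least 2-fold, where 1337 of all 22180 genes were called with such a change in either direction. Both rose: Cox6a2, a muscle isoform of a complex IV subunit, and Ndufaf4, an assembly factor of complex I.

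**Figure D1:**
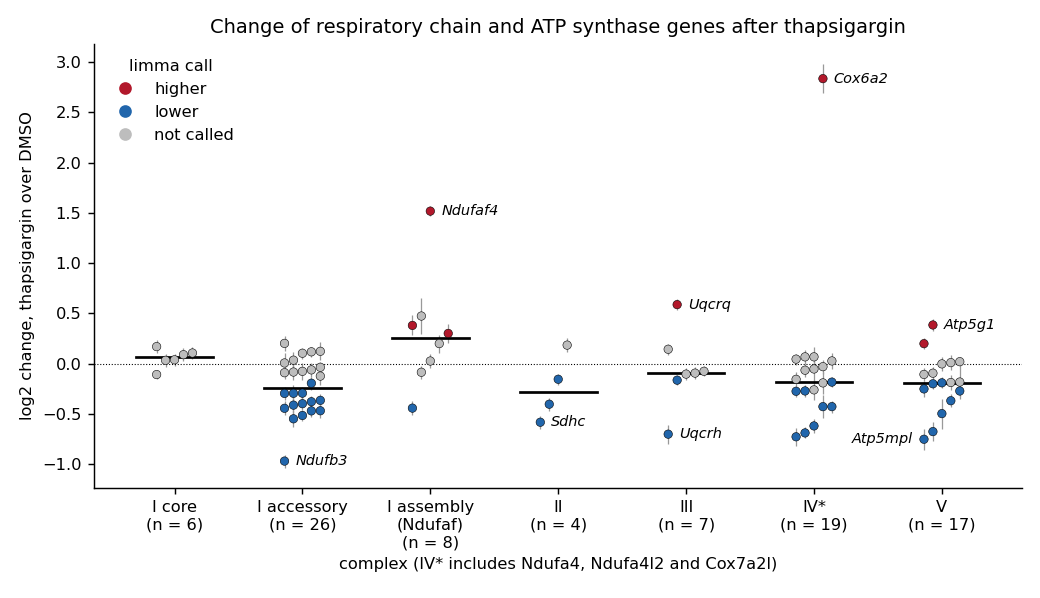
Log2 change of each gene after thapsigargin, thapsigargin over DMSO (y axis), by complex (x axis); points are genes coloured by the limma call, thin lines are ± 1 SE, and thick bars are medians. The 6 nuclear-encoded core subunits of complex I stay near 0, most called genes of the other complexes lie below 0, and Cox6a2 at 2.84 and Ndufaf4 at 1.52 stand far above the rest.

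The regions in front of 4 genes are printed, the called genes with the largest absolute change after thapsigargin for which a RefSeq window was found. Ndufaf4 rose, and Ndufb3 (complex I), Uqcrh (complex III) and Cox7a2 (complex IV) fell. Each window runs from 250 bases before to 50 bases after the gene's start, in RefSeq sequence of build GRCm38.p6, 5′ to 3′ on the gene's own strand. Capitals mark matches, on either strand, to 7 short motifs searched: CGCATGCG (the core of the NRF1 site), CCGGAAG (ETS factors such as GABP), TCAAGGTCA (oestrogen-related receptors), AAGATGGCG (YY1), TGACGTCA (CREB), TGATGCAA (ATF4 with C/EBP) and CCAAT (NF-Y). Matches were counted per motif, whether or not they overlapped one of another motif. Cox6a2 and Atp5mpl, which also changed strongly, had no window and are named only.
Ndufaf4 (chr4:24897833-24898132, plus strand): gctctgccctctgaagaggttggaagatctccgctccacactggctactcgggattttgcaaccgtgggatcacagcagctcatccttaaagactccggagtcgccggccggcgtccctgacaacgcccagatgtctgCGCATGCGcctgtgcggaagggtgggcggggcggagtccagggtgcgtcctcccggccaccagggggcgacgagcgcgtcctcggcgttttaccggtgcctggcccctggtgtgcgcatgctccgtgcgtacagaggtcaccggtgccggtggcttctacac
Ndufb3 (chr1:58586147-58586446, plus strand): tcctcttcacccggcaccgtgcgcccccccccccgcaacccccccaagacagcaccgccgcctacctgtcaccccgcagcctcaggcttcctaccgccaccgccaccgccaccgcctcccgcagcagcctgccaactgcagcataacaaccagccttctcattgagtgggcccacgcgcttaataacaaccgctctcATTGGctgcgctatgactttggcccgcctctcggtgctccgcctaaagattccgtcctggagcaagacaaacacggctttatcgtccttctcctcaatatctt
Uqcrh (chr4:116075021-116075320, minus strand): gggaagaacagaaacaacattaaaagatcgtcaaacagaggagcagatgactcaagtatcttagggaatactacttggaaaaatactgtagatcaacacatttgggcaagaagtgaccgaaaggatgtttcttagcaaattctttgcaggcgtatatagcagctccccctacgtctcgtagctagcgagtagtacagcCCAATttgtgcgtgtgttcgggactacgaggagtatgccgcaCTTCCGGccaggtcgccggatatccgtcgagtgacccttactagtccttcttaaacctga
Cox7a2 (chr9:79759804-79760103, minus strand): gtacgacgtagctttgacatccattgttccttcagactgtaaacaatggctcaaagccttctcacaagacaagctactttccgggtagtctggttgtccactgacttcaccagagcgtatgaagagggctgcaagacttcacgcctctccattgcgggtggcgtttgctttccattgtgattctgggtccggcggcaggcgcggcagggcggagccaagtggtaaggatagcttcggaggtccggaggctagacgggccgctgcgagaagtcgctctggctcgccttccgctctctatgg
The Ndufaf4 window held 1 match, the NRF1 core, beginning 112 bases before the start. In the Ndufb3 window the capitals mark CCAAT on the opposite strand, 53 bases before the start. The Uqcrh window held CCAAT 52 bases before the start and the ETS motif on the opposite strand 10 bases before it. None of the 7 motifs was found in the Cox7a2 window.

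RefSeq windows were found for 72 of the 87 genes, 77 windows in all. The NRF1 core was present in 14.3% of these, against 2.56% of 20520 windows of measured genes, and the ETS motif in 24.7%, against 11.4%. The YY1 motif was in 9.09% of member windows, against 1.86%. The oestrogen-related receptor motif was in only 2 of 77 windows (2.6%), against 0.317%, and the CREB motif in only 3 of 77 (3.9%), against 2.32%. CCAAT was in 40.3% of member windows, against 37.7%, and the ATF4 motif in 0 of 77, against 0.76%. These shares describe sequence letters and show no binding. Of the 11 genes with an NRF1 core, 7 fell and 2 rose after thapsigargin, and of the 19 genes with an ETS motif, 13 fell and 0 rose. Of 30 genes with CCAAT, 15 fell and 2 rose, and of 7 with the YY1 motif, 4 fell and 0 rose. The CREB motif had 3 genes and the oestrogen-related receptor motif 2, with 1 fall and 0 rises each. Among all 72 genes with a window, 33 were called lower and 5 higher. A link between motifs and calls was not tested.

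Among the nuclear genes of complex I the falls lay among the accessory subunits, though the difference from the core was not tested. The nuclear-encoded core subunits carry the flavin and the iron-sulfur clusters that take electrons from NADH to ubiquinone. Of the 6 nuclear core genes measured (Ndufs1, Ndufs3, Ndufs7, Ndufs8, Ndufv1 and Ndufv2), limma called 0 in any of the 3 comparisons. After thapsigargin their log2 changes ran between -0.11 and 0.17, with a median of 0.06. Ndufs1, the largest subunit of the NADH-oxidising module, had log2 values of 8.91, 8.91 and 8.91 in thapsigargin + forskolin samples, 8.99, 8.91 and 8.95 in thapsigargin samples and 8.65, 8.79 and 8.91 in DMSO samples. It was named after the values were seen, as the nuclear core gene with the highest change, and its adjusted p was 0.0877 for thapsigargin over DMSO. Its 2 treated groups overlapped.

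The accessory subunits surround the core and are needed for the assembly and stability of complex I in mammals. Of 26 measured, 14 fell after thapsigargin and 0 rose, with a median log2 change of -0.25. Ndufb3, a small subunit of the membrane arm, changed most. Its log2 values were 6.77, 6.85 and 6.74 in thapsigargin + forskolin samples, 6.91, 7.04 and 6.98 in thapsigargin samples and 7.89, 7.91 and 8.05 in DMSO samples. All treated samples lay below all DMSO samples, without overlap. The level was 1.96-fold lower after thapsigargin (log2 change -0.97, SE 0.06, limma adjusted p = 2.1e-06).

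Ndufa3, another membrane-arm subunit, had log2 values of 10.50, 10.40 and 10.49 in thapsigargin samples and 10.81, 11.06 and 11.16 in DMSO samples, and fell by 0.55 (SE 0.08, limma adjusted p = 0.000589). Ndufa13, known also as GRIM-19, measured 9.36, 9.33 and 9.40 in thapsigargin samples and 9.84, 9.86 and 9.95 in DMSO samples, and fell by 0.52 (SE 0.05, limma adjusted p = 2.78e-05). For both genes the groups did not overlap, and DMSO replicate 1 was the DMSO sample nearest to the treated ones. The membrane-arm subunits Ndufb8, Ndufb6 and Ndufc1 fell by 0.47, 0.47 and 0.45, each with groups that did not overlap.

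Ndufa6, a matrix-arm subunit of the LYR protein family, fell by 0.41 (limma adjusted p = 0.00212), and Ndufs4, whose loss in mice causes a Leigh-like encephalopathy, fell by 0.37 (limma adjusted p = 0.00172). Ndufab1, the mitochondrial acyl carrier protein, which also serves fatty acid synthesis, was not called: it measured 7.43, 7.37 and 7.47 in thapsigargin samples and 7.39, 7.43 and 7.64 in DMSO samples. Of the 12 accessory genes that were not called, 9 had overlapping groups, and none changed by more than 0.20 in either direction. When the accessory subunits were divided after seeing the values, 10 of 17 in the membrane arm and 4 of 8 in the matrix arm fell.

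**Figure D2:**
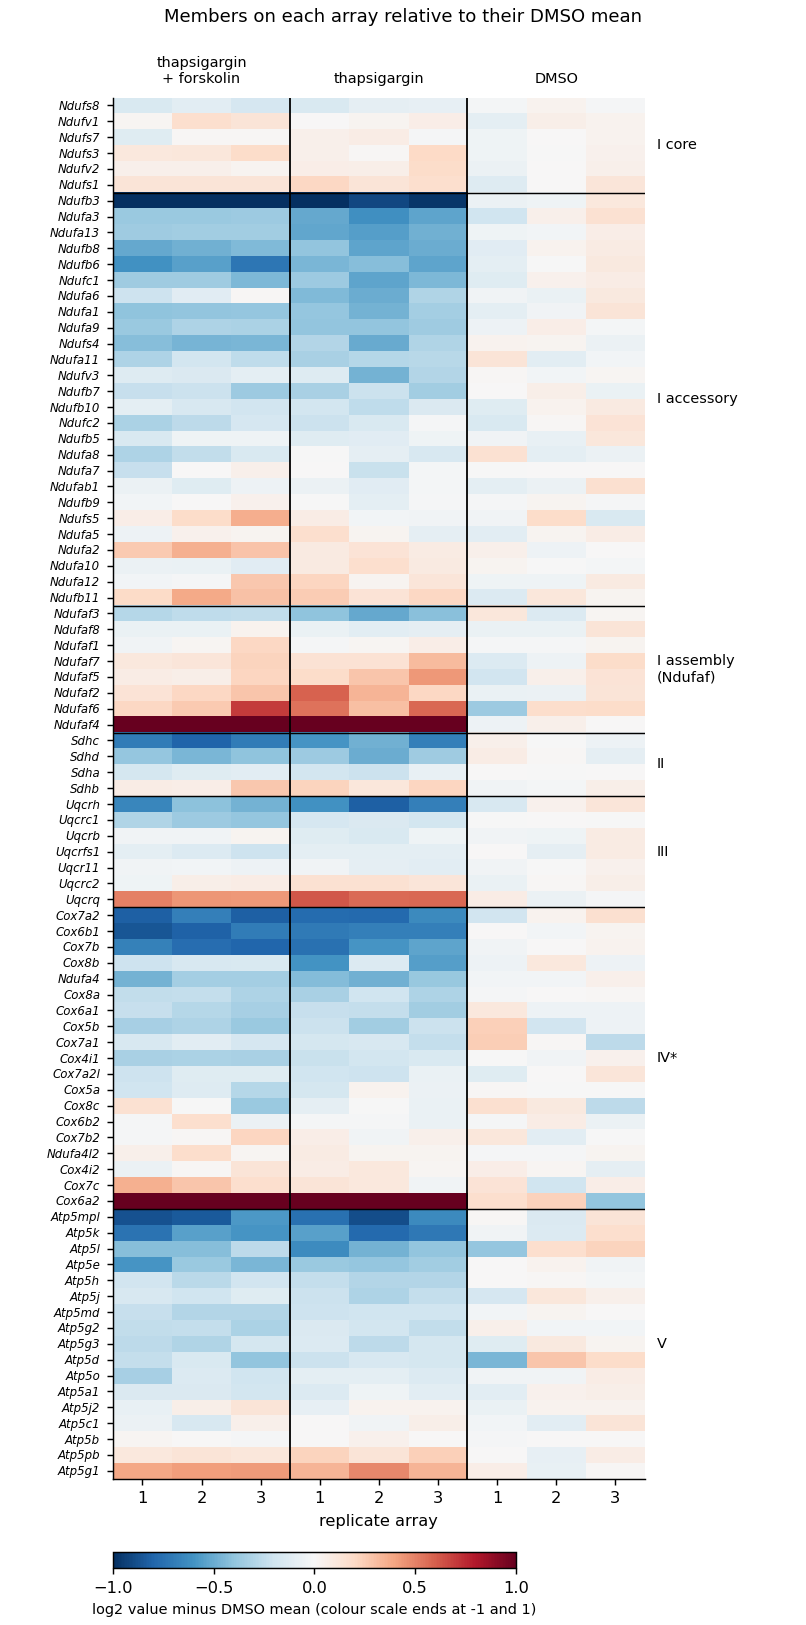
Log2 value of each of the 87 genes on each array minus its mean over the 3 DMSO arrays (colour; the scale ends at -1 and 1), with arrays as columns in the order thapsigargin + forskolin, thapsigargin and DMSO, and genes as lines sorted by change within each complex. Both treated groups show blocks of lower genes in the accessory part of complex I and in complexes II, IV and V, and Cox6a2 and Ndufaf4 reach the upper end of the scale.

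The 8 Ndufaf assembly factors, which build complex I and are no part of the finished enzyme, gave other counts: 3 rose and 1 fell after thapsigargin, with a median log2 change of 0.25. Ndufaf4 had log2 values of 8.94, 9.001 and 8.996 in thapsigargin + forskolin samples, 9.40, 9.43 and 9.46 in thapsigargin samples and 7.86, 7.96 and 7.91 in DMSO samples. The 3 groups did not overlap, with the combined treatment between the other groups. The level was 2.86-fold higher after thapsigargin (log2 change 1.52, SE 0.05, limma adjusted p = 3.08e-08). Ndufaf3, which acts with Ndufaf4 in an early assembly step, went the other way. It measured 8.09, 8.12 and 8.12 in thapsigargin + forskolin samples, 7.97, 7.86 and 7.95 in thapsigargin samples and 8.49, 8.24 and 8.40 in DMSO samples, and fell by 0.44 after thapsigargin (SE 0.07, limma adjusted p = 0.000692).

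Ndufaf2, a factor of the late assembly steps, measured 6.996, 6.74 and 6.61 in thapsigargin samples and 6.34, 6.34 and 6.53 in DMSO samples, a log2 change of 0.38 (SE 0.10, limma adjusted p = 0.0145). Its call was lost without DMSO replicate 1 (0.35) and without DMSO replicate 2 (0.35). The third riser, Ndufaf5, which modifies a core subunit, changed by 0.30 (limma adjusted p = 0.0403) and was named after its values were seen. Ndufaf6 had the second highest change, 0.47, but a large error (SE 0.17, limma adjusted p = 0.0654), and was also named after its values were seen.

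In complex II, which joins the tricarboxylic acid cycle to the respiratory chain, both membrane anchors fell after thapsigargin. Sdhc, an anchor, had log2 values of 8.95, 8.84 and 8.95 in thapsigargin + forskolin samples, 9.05, 9.17 and 8.96 in thapsigargin samples and 9.70, 9.64 and 9.59 in DMSO samples. It was 1.5-fold lower after thapsigargin (log2 change -0.58, SE 0.07, limma adjusted p = 7.52e-05). Sdhd, the other anchor, measured 9.04, 8.97 and 9.03 in thapsigargin + forskolin samples, 9.06, 8.94 and 9.07 in thapsigargin samples and 9.50, 9.44 and 9.34 in DMSO samples, and fell by 0.40 after thapsigargin (SE 0.06, limma adjusted p = 0.000634). Both anchors were lower in every treated sample than in every DMSO sample.

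Sdha, the flavoprotein that oxidises succinate, measured 10.62, 10.59 and 10.72 in thapsigargin samples and 10.80, 10.79 and 10.80 in DMSO samples. Its log2 change of -0.16 passed the threshold narrowly (SE 0.05, limma adjusted p = 0.0493), and the call was lost in most alternatives. Among them were the fit of the 6 arrays compared (-0.16), centring on array medians (-0.12) and leaving out any single DMSO array. Sdhb, the iron-sulfur subunit, measured 9.06, 8.95 and 9.05 in thapsigargin samples and 8.81, 8.82 and 8.90 in DMSO samples, a change of 0.18 that was not called (SE 0.07, limma adjusted p = 0.0724). The difference between the subunits was not tested.

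In complex III, 2 of 7 genes fell after thapsigargin and 1 rose. Uqcrh, the hinge protein beside cytochrome c1, had log2 values of 8.26, 8.50 and 8.44 in thapsigargin + forskolin samples, 8.31, 8.09 and 8.23 in thapsigargin samples and 8.75, 8.95 and 9.03 in DMSO samples. It was 1.63-fold lower after thapsigargin (log2 change -0.70, SE 0.10, limma adjusted p = 0.000252), with no overlap between the groups. Uqcrq, a small membrane subunit, was the one that rose. It measured 7.84, 7.78 and 7.77 in thapsigargin + forskolin samples, 7.96, 7.91 and 7.91 in thapsigargin samples and 7.41, 7.28 and 7.32 in DMSO samples, and its level was 1.5-fold higher after thapsigargin (log2 change 0.59, SE 0.05, limma adjusted p = 1.78e-05). Uqcrc1, a core protein of complex III, fell by 0.17 (SE 0.05, limma adjusted p = 0.0218), a call that was lost without thapsigargin replicate 1 or 3, without DMSO replicate 2 and under centring. The other 4 genes had changes between -0.11 and 0.14.

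In complex IV, 8 of 19 genes fell after thapsigargin and Cox6a2 rose. Cox6a2 encodes the isoform of subunit 6A that is typical of heart and skeletal muscle. Its log2 values were 8.93, 8.90 and 8.90 in thapsigargin + forskolin samples, 9.40, 9.22 and 9.24 in thapsigargin samples and 6.62, 6.68 and 6.06 in DMSO samples. DMSO replicate 3 was the lowest, and all treated samples lay more than 2 log2 units above all DMSO samples. The level was 7.14-fold higher after thapsigargin (log2 change 2.84, SE 0.14, limma adjusted p = 3.62e-07). Cox6a1, the widespread isoform, measured 12.77, 12.71 and 12.67 in thapsigargin + forskolin samples, 12.76, 12.76 and 12.65 in thapsigargin samples and 13.10, 12.94 and 12.95 in DMSO samples. It fell by 0.27 after thapsigargin (SE 0.06, limma adjusted p = 0.00777).

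The other widespread isoforms fell as well. Cox7a2 had log2 values of 8.68, 8.81 and 8.68 in thapsigargin + forskolin samples, 8.72, 8.72 and 8.86 in thapsigargin samples and 9.30, 9.53 and 9.66 in DMSO samples, 1.66-fold lower after thapsigargin (log2 change -0.73, SE 0.09, limma adjusted p = 0.000148). Cox6b1 measured 9.73, 9.77 and 9.88 in thapsigargin + forskolin samples, 9.88, 9.89 and 9.90 in thapsigargin samples and 10.58, 10.55 and 10.61 in DMSO samples, 1.61-fold lower after thapsigargin (log2 change -0.69, SE 0.05, limma adjusted p = 6.27e-06). In both genes the treated and the DMSO samples were fully apart. Cox7b fell by 0.62 (limma adjusted p = 5.25e-05), Cox8a by 0.28 (limma adjusted p = 0.00241) and Cox4i1 by 0.19 (limma adjusted p = 0.0137), the last call being lost under centring and without thapsigargin replicate 1.

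The isoforms typical of other tissues gave a different set of values. Cox4i2 of the lung and Cox6b2, Cox7b2 and Cox8c of the testis were not called, with log2 changes of 0.07, -0.03, 0.03 and -0.05. Cox7a1 of muscle measured 5.56, 5.57 and 5.49 in thapsigargin samples and 5.98, 5.75 and 5.47 in DMSO samples and was not called. Cox8b, known from heart, muscle and brown fat in mice, measured 4.72, 5.18 and 4.77 in thapsigargin samples and 5.26, 5.42 and 5.27 in DMSO samples. It fell by 0.43 (SE 0.11, limma adjusted p = 0.0142), and its call was lost without thapsigargin replicate 1 or 3 and without DMSO replicate 2. Cox6b2, Cox7a1, Cox7b2, Cox8b and Cox8c lay below the median of all values, 5.84, in every group, and Cox7b2 and Cox8c below the lower quartile, 4.55, and the background of single probe sets was not checked.

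Ndufa4, first described with complex I and later as a subunit of complex IV, measured 10.49, 10.62 and 10.62 in thapsigargin + forskolin samples, 10.53, 10.48 and 10.58 in thapsigargin samples and 10.94, 10.93 and 11.02 in DMSO samples. It fell by 0.43 after thapsigargin (SE 0.06, limma adjusted p = 0.000273). Its paralogue Ndufa4l2, a gene induced by hypoxia, measured 5.68, 5.62 and 5.62 in thapsigargin samples and 5.59, 5.59 and 5.62 in DMSO samples and was not called. Cox7a2l, which links complexes III and IV, measured 7.68, 7.68 and 7.82 in thapsigargin samples and 7.76, 7.88 and 8.01 in DMSO samples. Its change of -0.16 was not called (SE 0.07, limma adjusted p = 0.14).

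**Figure D3:**
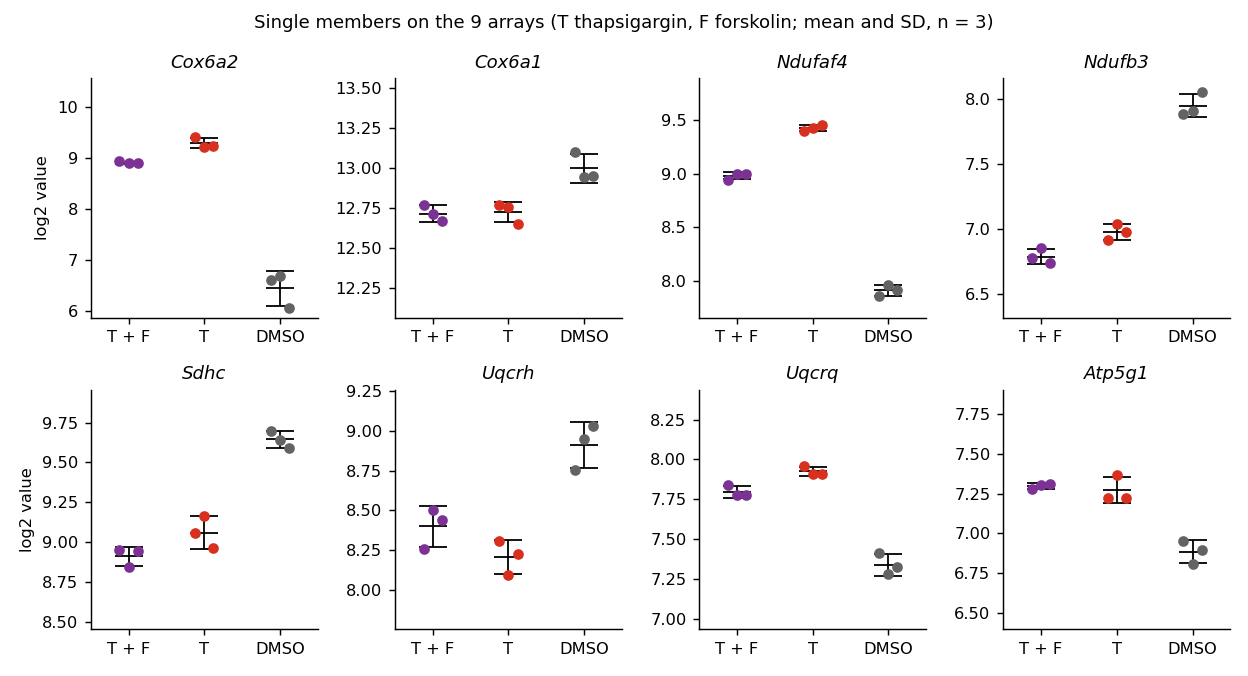
Log2 values of 8 genes on the 9 arrays (y axis; each panel has its own range) by group (x axis: T + F is thapsigargin + forskolin, T is thapsigargin); points are arrays, and bars are the mean and SD, n = 3. Cox6a2 and Ndufaf4 are higher in all treated samples and Cox6a1, Ndufb3, Sdhc and Uqcrh are lower, and Ndufaf4 is the one of the 8 with a called difference between the treated groups.

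In complex V most falls lay outside the catalytic F1 head, though this difference was not tested. Of 5 genes of the F1 head, 1 fell after thapsigargin: Atp5e, the epsilon subunit, by 0.37 (SE 0.06, limma adjusted p = 0.00111). This count depends on the probe sets. In the fit of all probe sets with 1 symbol, a dimmer second set of Atp5d fell by 0.25 (SE 0.06, limma adjusted p = 0.00883). The set of Atp5d used was not called (-0.18, SE 0.17), nor was a dimmer second set of Atp5e (-0.18, limma adjusted p = 0.276). Atp5b, the catalytic beta subunit, measured 12.30, 12.28 and 12.26 in thapsigargin + forskolin samples, 12.28, 12.32 and 12.28 in thapsigargin samples and 12.27, 12.28 and 12.28 in DMSO samples, and was not called in any comparison. Of the other 12 genes, which encode the c ring, the stalk and the membrane subunits, 7 fell and 2 rose. Atp5mpl, a small membrane proteolipid, measured 7.68, 7.70 and 7.97 in thapsigargin + forskolin samples, 7.80, 7.66 and 7.91 in thapsigargin samples and 8.56, 8.40 and 8.68 in DMSO samples. It was 1.69-fold lower after thapsigargin (log2 change -0.75, SE 0.10, limma adjusted p = 0.000294).

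Atp5k and Atp5l encode subunits e and g, which lie where 2 ATP synthases meet in a dimer. Atp5k measured 8.74, 8.51 and 8.57 in thapsigargin samples and 9.25, 9.15 and 9.45 in DMSO samples and fell by 0.68 (SE 0.10, limma adjusted p = 0.000348). Atp5l measured 9.35, 9.50 and 9.58 in thapsigargin samples and 9.59, 10.15 and 10.20 in DMSO samples. It fell by 0.50 (SE 0.15, limma adjusted p = 0.0266), with DMSO replicate 1 close to the treated samples, and its call was lost in 5 alternatives, among them leaving out DMSO replicate 2 (-0.41) or 3 (-0.39).

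The 3 genes Atp5g1, Atp5g2 and Atp5g3 encode the same mature c subunit behind different import sequences. Atp5g1 measured 7.28, 7.30 and 7.31 in thapsigargin + forskolin samples, 7.22, 7.36 and 7.22 in thapsigargin samples and 6.95, 6.81 and 6.90 in DMSO samples, 1.3-fold higher after thapsigargin (log2 change 0.38, SE 0.06, limma adjusted p = 0.000703). Atp5g2 measured 11.62, 11.59 and 11.53 in thapsigargin samples and 11.82, 11.75 and 11.75 in DMSO samples and fell by 0.19 (SE 0.05, limma adjusted p = 0.0191). Atp5g3 changed by -0.19 and was not called (SE 0.07, limma adjusted p = 0.066). The other gene of complex V that rose was Atp5pb, the b subunit of the stalk, with a change of 0.20 (limma adjusted p = 0.024), named after its values were seen.

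Adding forskolin to thapsigargin changed few of these genes. Against thapsigargin, 1 of 87 rose and 3 fell, where 3.7% of all genes were called higher and 4.17% lower. Among all genes with a group mean above the overall median, the shares were 5.85% and 6.68%. The median change was -0.01, the same as over all genes to 2 decimals. Ndufaf4 was the one call kept in every alternative: its values, given above, were lower in all thapsigargin + forskolin samples than in all thapsigargin samples (log2 change -0.45, SE 0.05, limma adjusted p = 0.000724). It nevertheless was 2.1-fold higher after the combined treatment than in DMSO cells (log2 change 1.07, SE 0.05, limma adjusted p = 2.78e-07).

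The other 3 calls lay near the threshold. Ndufa6 measured 9.16, 9.25 and 9.37 in thapsigargin + forskolin samples, against 8.92, 8.87 and 9.06 in thapsigargin samples and 9.33, 9.30 and 9.46 in DMSO samples, a rise of 0.31 over thapsigargin (SE 0.08, limma adjusted p = 0.0426). Ndufa10, a subunit of the membrane arm that faces the matrix, measured 10.06, 10.06 and 10.01 in thapsigargin + forskolin samples, against 10.21, 10.29 and 10.21 in thapsigargin samples, and fell by 0.20 (SE 0.05, limma adjusted p = 0.0428). Uqcrc1 measured 10.28, 10.21 and 10.19 in thapsigargin + forskolin samples, against 10.40, 10.43 and 10.40 in thapsigargin samples and 10.58, 10.58 and 10.57 in DMSO samples, and fell by 0.18 (SE 0.05, limma adjusted p = 0.0481). These groups did not overlap, but each of the 3 calls was lost in several alternatives. The split between genes called higher and lower depended on the scaling, being 1 to 3 on the deposited values, 0 to 3 after centring on array medians and 3 to 1 after another quantile normalization. Without thapsigargin + forskolin replicate 2 or 3, thapsigargin replicate 1 or DMSO replicate 2, the count called higher was 0, and without any single treated array or DMSO replicate 2 the count called lower was 1.

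Cox6a2 was lower in all 3 thapsigargin + forskolin samples than in all thapsigargin samples, but the change of -0.38 was not called (SE 0.14, limma adjusted p = 0.183). In complexes II, IV and V limma called 0 genes in this comparison, in either direction. The standard errors of about 0.07 with 3 arrays a group limit which differences could be called, so a missing call does not show equal levels.

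**Figure D4:**
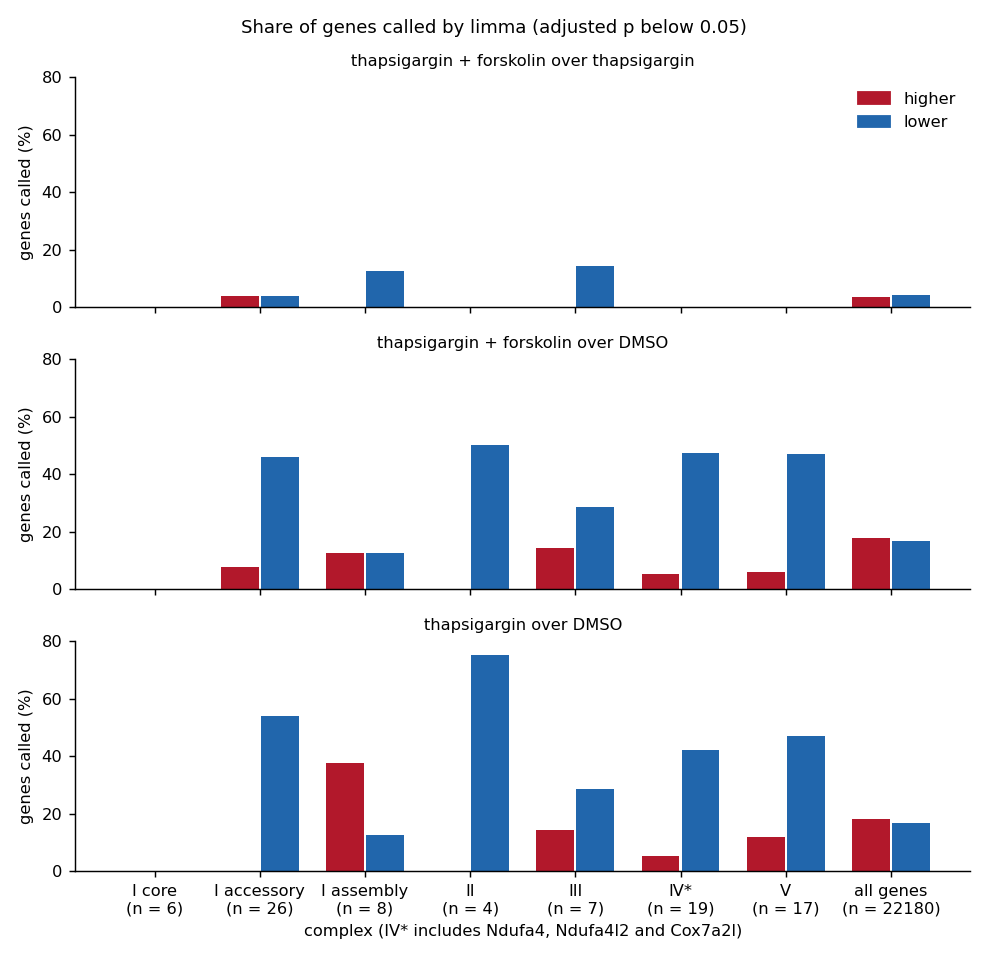
Share of genes called by limma at an adjusted p below 0.05 (y axis, percent) by complex (x axis) in the 3 comparisons, with all 22180 genes at the right; red bars are genes called higher and blue bars genes called lower in the group named first. After both treatments the blue bars of accessory complex I and complexes II to V stand above that of all genes, and the nuclear-encoded core of complex I has no bar. The blue bar of complex III is 2 of 7 genes (28.6%) in both comparisons with DMSO. Among all genes with a group mean above the overall median, 25.4% were called lower after thapsigargin and 24.8% after the combined treatment.

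Cells given thapsigargin with forskolin differed from DMSO cells in similar numbers of genes: 34 of the 87 fell and 6 rose, where 16.7% of all genes were called lower and 17.9% higher. Among all genes with a group mean above the overall median, 24.8% were called lower and 28.2% higher. Of the 80 oxidative phosphorylation genes at that level, 34 fell and 6 rose. The DMSO arrays are the same in both comparisons, so their counts are not independent. By complex, 0 of 6 nuclear core and 12 of 26 accessory complex I genes fell, as did 2 of 4 in complex II, 2 of 7 in complex III, 9 of 19 in complex IV and 8 of 17 in complex V. Ndufb3 was 2.24-fold lower than in DMSO cells (log2 change -1.16, SE 0.06, limma adjusted p = 7.39e-07). Cox6b1 fell by 0.79 (SE 0.05, limma adjusted p = 3e-06), Cox7a2 by 0.77 (SE 0.09, limma adjusted p = 0.000111) and Sdhc by 0.73 (SE 0.07, limma adjusted p = 1.83e-05). Cox7b fell by 0.74 (SE 0.07, limma adjusted p = 1.77e-05), a call that was lost (-0.14) when its 2 probe sets were averaged.

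The genes that rose over DMSO were Cox6a2, 5.49-fold higher (log2 change 2.46, SE 0.14, limma adjusted p = 1.01e-06), Ndufaf4, Uqcrq, Atp5g1, Ndufa2 and Ndufb11. Uqcrq and Atp5g1 changed by 0.46 (limma adjusted p = 0.000105) and 0.41 (limma adjusted p = 0.000495). Ndufa2, a matrix-arm subunit with a thioredoxin fold, measured 9.28, 9.37 and 9.30 in thapsigargin + forskolin samples, 9.11, 9.15 and 9.09 in thapsigargin samples and 9.07, 8.96 and 9.02 in DMSO samples, a change of 0.30 over DMSO (limma adjusted p = 0.00148). Ndufb11, of the membrane arm, changed by 0.29 (limma adjusted p = 0.018). Ndufa2 and Ndufb11 were named after their values were seen.

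Averaged over the 79 genes without the Ndufaf factors, each gene taken relative to its mean over the 9 arrays, the mean log2 value was -0.08, -0.04 and -0.04 in thapsigargin + forskolin samples, -0.04, -0.06 and -0.04 in thapsigargin samples and 0.07, 0.10 and 0.13 in DMSO samples. For the accessory subunits of complex I it was -0.10, -0.05 and -0.04 in thapsigargin + forskolin samples, -0.06, -0.12 and -0.07 in thapsigargin samples and 0.10, 0.15 and 0.19 in DMSO samples. The treated samples lay below the DMSO samples in both averages. For the 8 Ndufaf factors it was -0.02, 0.01 and 0.14 in thapsigargin + forskolin samples, 0.14, 0.08 and 0.16 in thapsigargin samples and -0.26, -0.18 and -0.07 in DMSO samples. The treated samples lay above the DMSO samples in this mean, to which Ndufaf4 adds most. In the median over the 8 genes, which was -0.05, -0.02 and 0.09 in thapsigargin + forskolin samples, 0.03, 0.02 and 0.12 in thapsigargin samples and -0.26, -0.10 and -0.002 in DMSO samples, the combined treatment overlapped with DMSO.

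Other genes of mitochondrial energy metabolism were counted from lists, with the same calls. These counts stand beside 18.2% called higher and 16.9% called lower over all genes for thapsigargin over DMSO. Among all genes with a group mean above the overall median, the shares were 28.9% and 25.4%. Of 38 assembly factors outside the Nduf symbols, 21 rose and 7 fell after thapsigargin, with a median change of 0.24, the share that fell being near that of all genes. Sco1, a copper chaperone of complex IV, measured 8.70, 8.79 and 8.70 in thapsigargin samples and 7.30, 7.52 and 7.47 in DMSO samples, 2.47-fold higher (limma adjusted p = 5.1e-07). Lyrm7, which helps insert the Rieske protein of complex III, and Foxred1, a complex I factor, were each 2.03-fold higher (limma adjusted p = 4.9e-05 and 3.1e-06). Among those that fell, named after their values were seen, were Cox20, a chaperone of a mitochondrially encoded complex IV subunit, by 0.78 and Tmem126b, a complex I factor, by 0.73. With forskolin added, 1 of the 38 rose and 1 fell against thapsigargin, where 3.7% of all genes were called higher and 4.17% lower: Atpaf1, a chaperone of the F1 head, changed by 0.36 (limma adjusted p = 0.023) and Tmem70, a complex V factor, by -0.38 (limma adjusted p = 0.044).

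Of 10 genes of the mitochondrial DNA that encode complex I, III or IV subunits, 0 rose and 2 fell after thapsigargin, a share near the 16.9% of all genes called lower. ND6, the complex I gene read from the other DNA strand than the rest, measured 10.43, 10.18 and 10.23 in thapsigargin samples and 11.09, 10.60 and 10.62 in DMSO samples, a fall of 0.49 (limma adjusted p = 0.013), with DMSO replicate 1 the highest. ND3 fell by 0.16 (limma adjusted p = 0.039). The other 8 had changes between -0.09 and -0.01. Their group means lay between 12.78 and 13.60, against 10.25 to 10.77 for ND6. Whether probe sets at such high levels still follow changes was not checked. The probe sets do not tell how RNA of mitochondrial DNA relates to DNA copy number.

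Mitochondrial chaperones and proteases moved up: 10 of 12 rose and 1 fell after thapsigargin. Lonp1, the matrix protease, measured 10.22, 10.33 and 10.36 in thapsigargin samples and 8.16, 8.30 and 8.41 in DMSO samples, 4.04-fold higher (limma adjusted p = 4.5e-08). Hspd1 and Hspe1, the chaperonin pair of the matrix, were 2.69-fold and 2.36-fold higher (limma adjusted p = 2.2e-06 and 2.3e-05). Of 18 regulators of mitochondrial gene expression, 9 rose and 2 fell. Tfb1m and Tfam, which bind mitochondrial ribosomal RNA and mitochondrial DNA, were 2.38-fold and 2.36-fold higher (limma adjusted p = 5.7e-07 and 3.3e-05), and Pprc1, a coactivator, was 2.15-fold higher (limma adjusted p = 3.9e-07). The 2 that fell, named after their values were seen, were the coactivator Ppargc1a, by 0.65 (limma adjusted p = 0.00034), and the receptor Esrra, by 0.38 (limma adjusted p = 0.0056). Ppargc1a had means of 5.29 in thapsigargin and 5.95 in DMSO samples, near the overall median of 5.84. Also named after their values were seen, Nrf1, Gabpa and Gabpb1 rose by 0.38, 0.57 and 0.32 (limma adjusted p = 0.00122, 1.5e-05 and 0.00397). The NRF1 and ETS motifs are counted above, and a link was not tested.

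In the tricarboxylic acid cycle 6 of 12 genes rose and 1 fell, with Dld, the dehydrogenase shared by several complexes, 2.45-fold higher (limma adjusted p = 8.7e-08). Among 12 genes of cytochrome c and ubiquinone synthesis 5 rose and 1 fell, with Cycs, somatic cytochrome c, 1.66-fold higher (limma adjusted p = 1.3e-05). Of 8 transporters of ADP, ATP and phosphate 2 rose and 3 fell. Of 10 inhibitors and alternative enzymes 1 rose and 4 fell. Atpif1, the inhibitor of ATP synthase, fell by 0.72 (limma adjusted p = 5.3e-06), and Dhodh, of pyrimidine synthesis, rose by 0.60 (limma adjusted p = 7.4e-05).

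**Figure D5:**
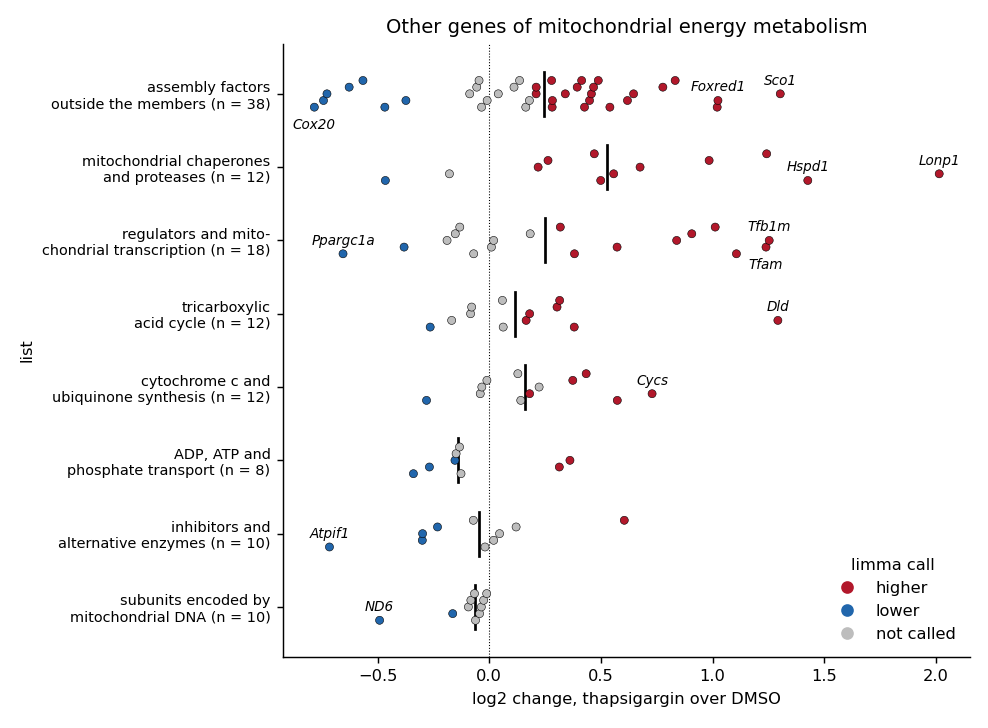
Log2 change after thapsigargin, thapsigargin over DMSO (x axis), of genes in 8 lists outside the 87 genes (y axis); points are genes coloured by the limma call and thick bars are medians. Chaperones and proteases have most points above 0, up to 2.01 for Lonp1, and the subunits encoded by mitochondrial DNA lie close to 0 except ND6.

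Some of these values carry a limit of the probe sets. Of the 87 genes 9 had a second probe set, which for Atp5h changed in the opposite direction after thapsigargin (0.38, against -0.27 for the brighter set used, both called). The dimmer set of Cox7b was higher with forskolin added (0.63, limma adjusted p = 0.035), where the brighter set changed by -0.12 and was not called. For 10 genes, among them Uqcrh, Atp5k, Atp5l, Atp5pb and Ndufab1, the RefSeq table lists a pseudogene of the same symbol, and RNA from such a copy cannot be told apart here. The levels of different genes were not compared, since each probe set has its own brightness.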

How the data were processed

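Expression was measured on 9 single-colour arrays, 3 per group. The authors deposited log2 values, and the submitters' processing notes name affy and RMA. The genome build and the tool versions were not given in the sources used here. RMA makes the distributions of the arrays alike, so a change in total RNA per cell cannot be seen, and the number of arrays limits the precision. Scanner files were not used here. Of 41345 probe sets, 23521 had 1 gene symbol, 1814 several and 16010 none in the platform annotation. Each of 22180 genes was represented by its brightest probe set (by mean of the 9 arrays). Groups came from the sample titles. One limma fit of 3 group means (limma 3.58.1, R 4.3.3; 6 residual degrees of freedom) gave 3 two-sided contrasts, with Benjamini-Hochberg adjustment over all genes. The procedure was tested on simulated data. Promoter windows came from RefSeq (GRCm38.p6) and figures from matplotlib 3.10.9 in Python 3.11.15.

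The members and lists were chosen with earlier results of these data known. Named were, per comparison and complex, up to 4 called genes with the largest change (complex I up to 6, Ndufaf up to 3), all complex II genes, Ndufab1, Ndufa4, Ndufa4l2, Cox7a2l and the isoform families, and up to 3 called genes per other list. Others are marked in the text. Some genes, such as Ndufa6, Ndufs4 and Atp5e, met this rule only in a comparison of the combined treatment. Their changes after thapsigargin are given as well. The lists were not tested as sets. Alternatives were a fit of the 6 arrays compared, centring on array medians, an intensity trend with a robust prior, another quantile normalization, array weights, only genes above the median level, the mean of a gene's probe sets, all probe sets, the replicate number as a block, the Ndufaf genes left out, and each array left out in turn.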

Additional observations from a re-analysis of the deposited data

How the results depend on the processing

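No gene named by the rule changed direction in an alternative where it was called in the main fit or in that alternative. Changes of direction of genes called in neither were not counted. Of the named genes called, 22 of 29 kept their call in every alternative for thapsigargin over DMSO, 1 of 4 for thapsigargin + forskolin over thapsigargin and 25 of 27 for thapsigargin + forskolin over DMSO. For thapsigargin over DMSO, the count of members called higher (7) became 12 with an intensity trend and robust prior, 13 when only genes with at least 1 group mean over the overall median were fitted and adjusted, and 4 without the Ndufaf factors. For thapsigargin + forskolin over thapsigargin, the count called higher (1) became 0 in the fit of the 6 arrays and after centring, and 3 with the trend and robust prior, with array weights, after another quantile normalization and in the fit of those brighter genes. The count called lower (3) became 1 after another quantile normalization and 1 with the replicate block. Leaving out each array in turn gave 5 to 9 higher and 30 to 38 lower for thapsigargin over DMSO, 0 to 1 higher and 1 to 3 lower for thapsigargin + forskolin over thapsigargin, and 5 to 8 higher and 28 to 39 lower for thapsigargin + forskolin over DMSO. The causes of these moves were not tested.

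Replicate numbers are shared by the groups. Deviations from the group means correlated between -0.07 and 0.25 for arrays with the same number and between -0.30 and 0.25 for others. Arrays numbered 3 gave 0.21, 0.23 and 0.18, those numbered 1 gave 0.04, 0.25 and -0.01, and those numbered 2 gave 0.04, -0.01 and -0.07. The numbers were not taken to pair the samples in the main fit, and shared conditions of a replicate number were not tested. With the replicate block, 10 members were called higher and 34 lower for thapsigargin over DMSO, 1 and 1 for thapsigargin + forskolin over thapsigargin, and 7 and 35 for thapsigargin + forskolin over DMSO. With 3 arrays a group, no test for outlying arrays was made.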
